A study of Mus musculus with 12 samples.

Results

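The interleukin receptor genes are the genes whose names begin with Il, a number and r, and they code for the cell surface chains that bind interleukins or pass their signal on. Of 19505 genes with a probe set of their own name, 37 matched this pattern. Il1rn, a ligand antagonist, and the receptor genes Il5ra and Il2rb were left out, so that 34 members remained, each with 1 probe set. Il1rl1, Il2rg, Il11ra1 and Il11ra2 were not analysed here. The members were measured in Siglec-F+ cells, labelled alveolar macrophages, of male C57 Black mice. The cells were pulled from lung with magnetic beads carrying an antibody to Siglec-F, a lectin that alveolar macrophages share with eosinophils. The control mice had an intact liver, and the other groups were taken 1, 3 and 7 days after 70% of the liver had been removed. Each group had 3 biological replicates with 1 array each. The labels do not say which animals each replicate came from, so the p-values measure the spread between these samples. As the controls were intact mice, loss of liver and the operation itself cannot be told apart.

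Interleukin receptors work as pairs or trios of chains. The IL-1 family pairs a ligand-binding chain with an accessory protein and signals through MyD88, and its type 2 receptor is a decoy that binds IL-1 without signalling. The receptors of IL-2, IL-4, IL-7, IL-9, IL-15 and IL-21 share the common gamma chain, those of IL-6 and IL-11 share gp130, and both kinds signal through JAK kinases and STAT factors. IL-10 and its relatives use a further class of chains, in which the receptors of IL-10 and IL-22 share IL-10 receptor beta. IL-17 receptors signal through the adaptor Act1. In lung macrophages the receptors for IL-4, IL-13 and IL-10 are known for steering alternative and restraining programmes.

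The values were log2 signals between 1.07 and 12.79, with array medians from 3.09 to 3.19. The upper 95% limit of the negative control probe sets lay between 5.01 and 5.69 on the 12 arrays and served as the mark of background. The separation of positive from negative controls (area under the curve) was 0.809 to 0.838 on 3 arrays, day 1 replicate 2, day 3 replicate 1 and day 7 replicate 2, and 0.852 to 0.888 on the other 9. The labelling control dap was seen on 3 arrays, day 3 replicate 1, day 7 replicate 2 and day 7 replicate 3. All 13 measured markers of alveolar macrophages stood above the background limit on every array. Markers of lung tissue were present too: 5 of 7 alveolar epithelial and 4 of 6 endothelial markers exceeded the limit on all intact arrays. In such sorted bulk samples, fewer cells of a type and less RNA per cell cannot be told apart.

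Of the 34 members, 7 exceeded the background limit on all 12 arrays: Il4ra, Il13ra1, Il6ra, Il10ra, Il12rb2, Il17ra and Il1r2. A further 7 did so on some arrays, namely Il10rb on 11, Il20rb on 10, Il7r and Il3ra on 9 each, Il1rap on 8, and Il15ra and Il18rap on 5 each. The remaining 20 were above it on no array, with values from 1.77 to 5.05. These were Il1r1, Il1rl2, Il18r1, Il1rapl1, Il1rapl2, Il2ra, Il9r, Il21r, Il13ra2, Il12rb1, Il23r, Il27ra, Il31ra, Il20ra, Il22ra1, Il22ra2, Il17rb, Il17rc, Il17rd and Il17re. The limit sets these counts: 12 members passed it everywhere with the 90th percentile of the controls, and 0 with the 99th, both limits being chosen after the values were seen.

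Some receptors had all of their measured chains above background and others did not. Both chains of the IL-10 receptor (Il10ra and Il10rb) and both of the type 2 IL-4 receptor (Il4ra and Il13ra1) were above background on at least 11 arrays. For IL-12, Il12rb2 was above it on all arrays and its partner Il12rb1 on none. For IL-17A, Il17ra was above it throughout and Il17rc nowhere. For IL-18, the accessory chain Il18rap exceeded the limit on 5 arrays and the ligand-binding Il18r1 on 0. For IL-20, Il20rb was above it on 10 arrays and Il20ra on 0. For IL-1, the decoy Il1r2 was above it on all arrays and the signalling receptor Il1r1 on none. A probe set below the limit has only an upper bound, so these counts do not show that a chain is missing.

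**Figure D1:**
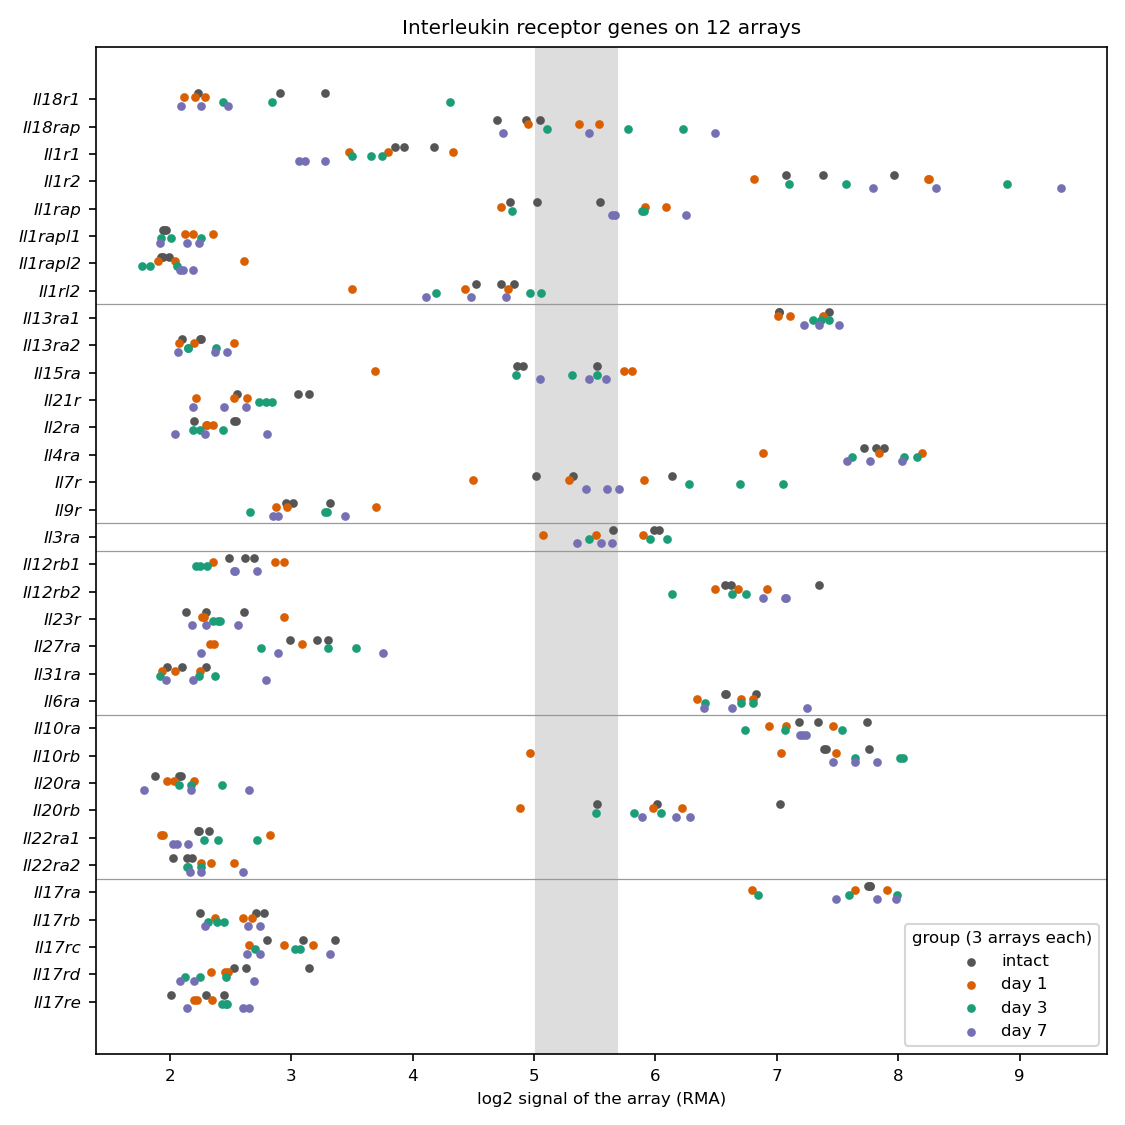
Log2 signal of the 34 members on each of 12 arrays, coloured by group (3 arrays each), with horizontal lines between receptor families; the grey band spans the upper 95% limits of the negative controls, 5.01 to 5.69. The 7 members above background throughout, among them Il4ra and Il1r2, lie to the right of the band on every array, and 20 members never pass the limit of their array.

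The question of each comparison was how the cells differed from the intact group 1, 3 or 7 days after the resection. In limma, 0 of 34 members reached an adjusted p of 0.05 at day 1, where the share over all 22206 probe sets was 0%. The number was 0 at day 3 as well, where 0.0045% of all probe sets passed, and 0 at day 7, where 0.018% did. At an unadjusted p under 0.05 there was 1 member at day 1 (Il21r), against 8.94% of all probe sets. There were 2 at day 3 (Il7r and Il17rd), against 4.46%, and 2 at day 7 (Il1r1 and Il21r), against 5.70%. These shares of the members were 2.94%, 5.88% and 5.88%, so they lay below the background at day 1 and near it on the later days. The F test over the 4 groups gave 0 members at an adjusted p of 0.05 (0.00901% of all probe sets) and 2 at an unadjusted p under 0.05, Il7r and Il1r1, or 5.88% against 7.34%.

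At day 1, 13 were higher and 21 lower than intact, with a median log2 difference of -0.046 against -0.018 over all genes. At day 3, 19 were higher and 15 lower (median 0.033, all genes 0.00070), and at day 7 the split was 17 and 17 (median 0.00040, all genes -0.015). Groups did not overlap with intact for 3 members at day 1 (8.82%, against 16.4% of all probe sets), 5 at day 3 (14.7%, against 13.9%) and 5 at day 7 (14.7%, against 14.3%). Differences from intact ran from -1.02 (Il10rb) to 0.45 (Il1rap) at day 1. They ran from -0.49 (Il17rd) to 1.18 (Il7r) at day 3, and from -0.83 (Il1r1) to 1.01 (Il1r2) at day 7.

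**Figure D2:**
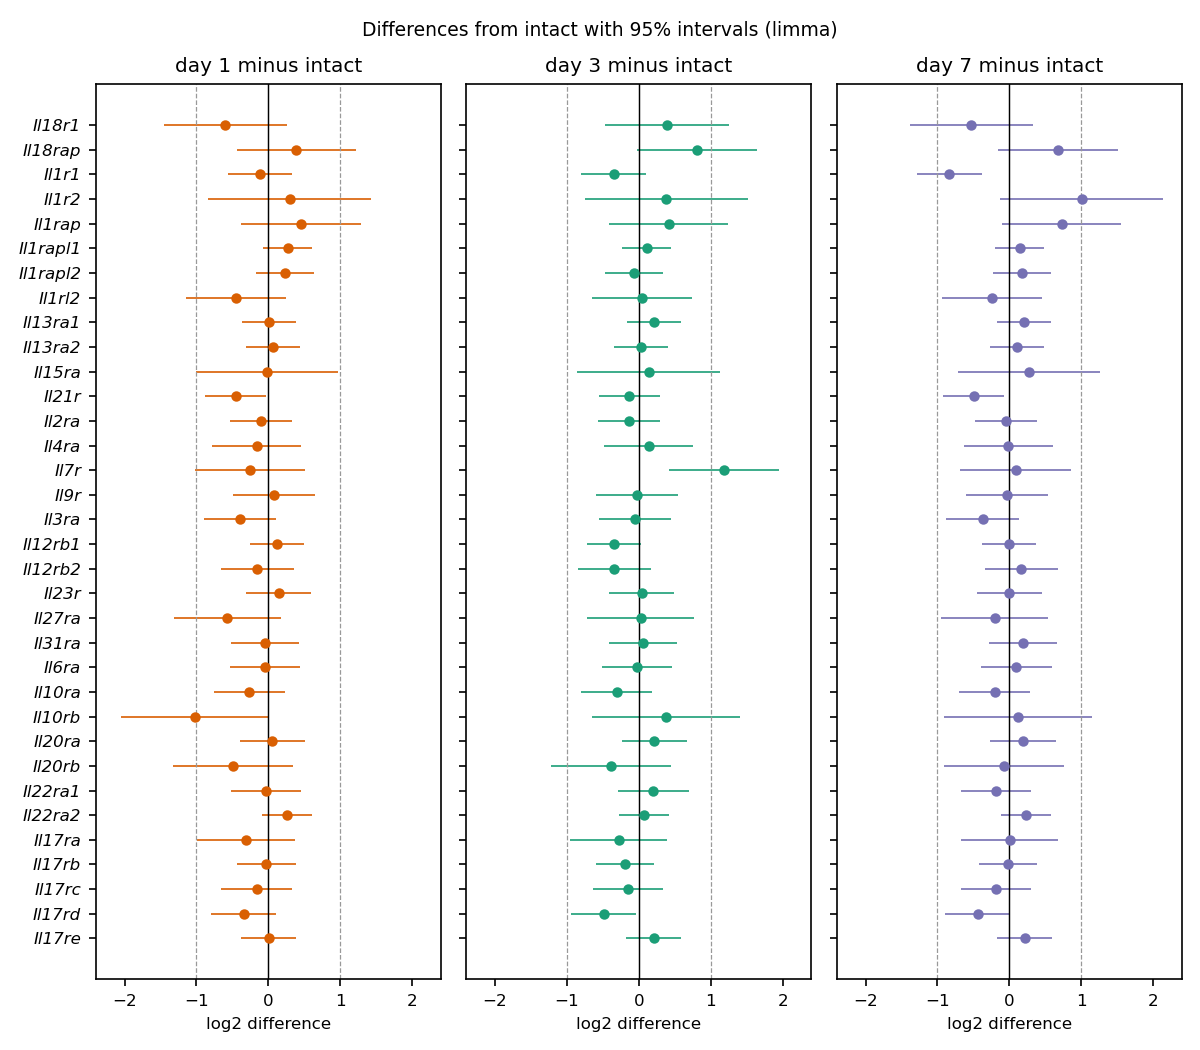
Log2 difference from intact of the 34 members at day 1, day 3 and day 7, with 95% intervals from limma (3 arrays per group); dashed lines mark a doubling and a halving. Most intervals span 0; the points farthest out are Il10rb at day 1 (-1.02), Il7r at day 3 (1.18) and Il1r1 (-0.83) and Il1r2 (1.01) at day 7.

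Il7r, the alpha chain of the IL-7 receptor and the survival receptor of lymphocytes, had the lowest p of the members at day 3. Its log2 signal was 6.14, 5.01 and 5.32 on the intact arrays and 5.29, 4.50 and 5.91 at day 1. At day 3 it was 6.27, 7.05 and 6.70, and at day 7 it was 5.60, 5.43 and 5.70. All 3 day 3 arrays lay above all 9 others, though the margin between day 3 replicate 1 and intact replicate 1 was small. The day 3 mean of 6.67 ± 0.39 (SD, n = 3) compared with 5.49 ± 0.58 in intact samples, a log2 difference of 1.18 ± 0.35 (SE, 2.27-fold). The adjusted p in limma was 0.800, so the difference did not pass. Day 3 against day 1 gave 1.44 ± 0.35 (adjusted p = 0.350) and day 7 against day 3 gave -1.10 ± 0.35 (adjusted p = 0.819).

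The Il7r result depended on how the weakly separating arrays were treated. Those 3 arrays are all from resected groups, and day 3 replicate 1 held the lowest Il7r value of its day (6.27). Without those 3 arrays the difference at day 3 was 1.38 ± 0.29, with an adjusted p of 0.0484, and with array weights it was 1.38 ± 0.26, with an adjusted p of 0.0195. In those fits 1.13% and 1.34% of all probe sets passed. Leaving out 1 array at a time kept it between 0.94 (without intact replicate 2) and 1.51 (without intact replicate 1), with adjusted p from 0.273 to 1.00. As IL-7 receptor is carried by lymphocytes, their markers are given beside it. Of 11 T and NK cell markers 8 were lower than intact at day 3. Their summed level was 7.03 to 7.58 on the day 3 arrays against 7.97 to 8.20 on the intact ones. Of the 11 T and NK cell markers, 1 was above the background limit on all day 3 arrays and 10 on none of them. On the intact arrays these counts were 1 and 9. The T cell receptor genes Cd3d, Cd3e and Cd3g were above the background limit on 0 of 12 arrays, as were all 4 measured B cell markers. Of the markers of type 2 innate lymphoid cells other than Il7r, Rora differed by -0.18 and Klrg1 by 0.077 at day 3. Arg1, also known from macrophages, differed by 0.75, with no overlap between the groups and all 12 arrays under the limit. The part of lymphoid cells in the Il7r values was not tested.

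RefSeq promoter sequences, from 250 bases before to 50 after a transcription start (GRCm38.p6), were found for 28 members in 32 windows. They were searched on both strands for GGAAGT (reverse complement ACTTCC), the core that ETS factors such as the macrophage regulator PU.1 bind. The letters occurred in 13 of the 32 windows, in 12 members, and in 23.8% of all 32851 promoter windows of this length. The longer PU.1-preferred form GAGGAAGT, which contains the core, was in 1 member window, that of Il18rap, and in 3.20% of all windows. Among other members described array by array, Il3ra had a match that is not shown, and Il4ra and Il1rap had none. No window was found for Il10rb. The 4 stretches below come from members with a match, with the core in capitals, read 5′ to 3′ on the gene's strand.
Il7r: ccttttgctcagACTTCCtgtttctggcac
Il18rap: agaggaggaggaGGAAGTaaaaaagaactc
Il1r1: catactgttcatACTTCCccagatgtgtca
Il1r2: ctttttcaaggaACTTCCgactactctgtt
They lie at chr15:9529908-9529937 (minus strand), chr1:40515273-40515302, chr1:40224992-40225021 and chr1:40085978-40086007 (all plus strand). The core begins 49, 77, 76 and 103 bases before the start, which for Il1r1 is 1 of 2 starts in the table. A match is a description of the letters and says nothing about binding.

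The IL-1 receptor family had 8 measured members, 5 of which (Il1r2, Il1r1, Il1rl2, Il18r1 and Il18rap) lie in a cluster on chromosome 1 in RefSeq (GRCm38.p6). There Il1r2, Il1r1 and Il1rl2 follow each other as protein-coding genes, and so do Il18r1 and Il18rap. At day 7 Il1r1 was the member with the lowest p of all, on the lower side, and the adjacent Il1r2 was the highest member by difference.

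Il1r1, the signalling receptor for IL-1 alpha and beta, stood at 3.85, 3.93 and 4.17 on the intact arrays and 3.80, 3.47 and 4.33 at day 1. It stood at 3.50, 3.75 and 3.65 at day 3 and at 3.06, 3.11 and 3.28 at day 7. All 3 day 7 arrays were below all 9 others, and all values were under the background limit. The day 7 mean was 3.15 ± 0.11 (SD, n = 3) against 3.98 ± 0.17, a log2 difference of -0.83 ± 0.21 with an adjusted p of 0.356, which did not pass. Against day 1 the difference was -0.72 ± 0.21 (adjusted p = 0.694), and at day 3 against intact it was -0.35 ± 0.21 with no overlap. With array weights the day 7 difference was -0.78 ± 0.16 with an adjusted p of 0.0289, where 1.81% of all probe sets passed. Without the weakly separating arrays it was -0.81 ± 0.19 (adjusted p = 0.0727), where 1.26% passed. Il1r1 is carried by fibroblasts, endothelium and epithelium, and markers of these cells were also lower than intact at day 7. At day 1, with day 1 replicate 2 included, the medians of their markers were -1.23, -1.86 and -1.70 in this order. The summed levels of these markers spread from 5.84 to 7.66, 6.72 to 8.89 and 7.41 to 10.60 on the day 1 arrays. Il1r1 differed by -0.12 at day 1, or by 0.081 without day 1 replicate 2. The marker medians are given only with that array, so only the first of these values has the same arrays. At day 7 all 5 fibroblast, 6 endothelial and 7 alveolar epithelial markers were lower than intact, with medians of -0.66, -1.38 and -1.46. Their summed levels were 6.23 to 6.50, 7.92 to 9.17 and 9.42 to 10.39 at day 7, against 7.34 to 8.89, 9.19 to 10.10 and 11.09 to 11.63 in intact samples. At day 7, 4, 1 and 3 of these markers were above the limit on no array. Their part in the Il1r1 result was not tested.

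Il1r2, the decoy receptor, stood at 7.38, 7.97 and 7.08 on the intact arrays and 8.25, 6.81 and 8.25 at day 1. It stood at 7.10, 7.57 and 8.89 at day 3 and at 8.31, 9.34 and 7.80 at day 7. The groups overlapped at each day, with SDs within groups of 0.45 to 0.93. The day 7 difference of 1.01 ± 0.52 had an adjusted p of 0.921, with a 95% interval from -0.13 to 2.14. Without day 7 replicate 2, its highest array, the difference was 0.58. At days 1 and 3 the differences of Il1r2 were 0.30 and 0.38. Without the weakly separating arrays these were 0.77 ± 0.35 and 0.76 ± 0.35 (adjusted p in limma 0.478 and 0.571). The day 3 difference was -0.14 without day 3 replicate 3. Il1rap, the accessory chain of the IL-1 receptor, had day 7 values of 5.67, 6.25 and 5.64, all above the intact values of 4.80, 5.54 and 5.03. Its difference was 0.73 ± 0.38 (adjusted p = 0.927). At day 1 it was 6.09, 4.73 and 5.92, and the difference was 0.45 ± 0.38, or 0.88 ± 0.29 (adjusted p = 0.282) without the weakly separating arrays.

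Il18rap was 4.93, 4.69 and 5.05 in intact samples, 5.53, 4.95 and 5.37 at day 1, 5.77, 5.11 and 6.23 at day 3, and 4.75, 6.49 and 5.45 at day 7. The day 3 arrays all lay above the intact ones, and the day 7 arrays spread from below to well above them. The differences were 0.39 ± 0.38, 0.81 ± 0.38 and 0.67 ± 0.38 at days 1, 3 and 7, with adjusted p of 0.762, 1.00 and 0.967. The day 7 difference was 0.21 without day 7 replicate 2 and 1.08 without day 7 replicate 1. With array weights the day 3 difference was 0.90 ± 0.27 (adjusted p in limma 0.134). Its partner Il18r1 stayed under the limit everywhere. The day 3 mean of 3.19 ± 0.98 for Il18r1 rested on replicate 1 at 4.30, and without the weakly separating arrays, of which this is one, the difference from intact turned from 0.39 to -0.16. Il1rl2, the IL-36 receptor, differed by -0.46, 0.042 and -0.24, and the neuronal genes Il1rapl1 and Il1rapl2 by 0.27, 0.11 and 0.14 and by 0.23, -0.067 and 0.17. Il1rapl1 was higher than intact on all day 1 arrays, between 2.12 and 2.35 against 1.94 to 1.97.

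Il1r2 is known to be abundant in neutrophils, and markers of these cells were higher than intact in the same groups as Il1r2, Il1rap and Il18rap. At day 7, 10 of 11 neutrophil markers were above intact, with a median of 1.26, and at days 1 and 3 the counts were 9 and 8 with medians of 1.02 and 0.93. Their summed level was 11.67 to 12.31 on the intact arrays, 12.35 to 13.32 at day 1, 12.68 to 13.31 at day 3 and 12.92 to 13.46 at day 7. At day 7, 9 of 11 were above the background limit on all arrays and 1 on none. The part of these cells in the values of the 3 receptor genes was not tested.

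**Figure D3:**
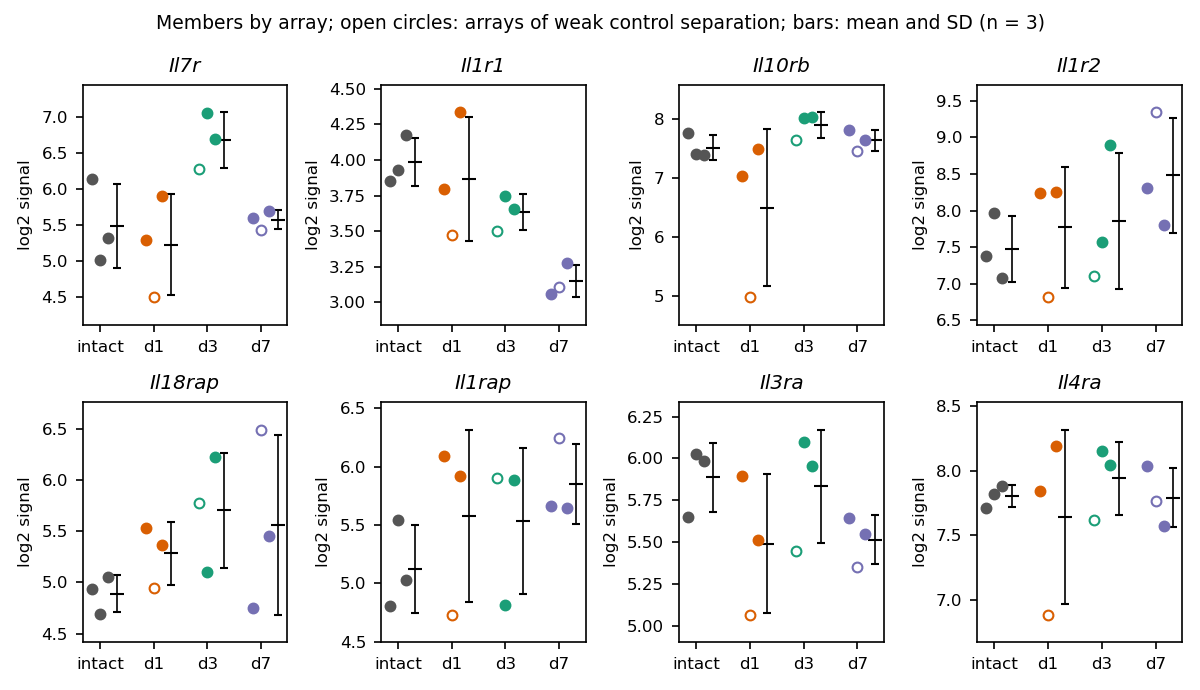
Log2 signal of 8 members on each array by group, with mean and SD (n = 3) as bars and open circles for the arrays of weak control separation. Il7r is highest on the 3 day 3 arrays (6.27 to 7.05), Il1r1 is lowest on the 3 day 7 arrays (3.06 to 3.28), and the low day 1 mean of Il10rb comes from 1 open circle at 4.97.

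Among the IL-10 family receptors, Il10rb, the chain shared by the receptors of IL-10 and IL-22, had its own lowest group mean at day 1. It was 7.76, 7.41 and 7.39 in intact samples and 7.03, 4.97 and 7.49 at day 1. It was 7.64, 8.01 and 8.04 at day 3 and 7.82, 7.46 and 7.64 at day 7. The difference of -1.02 ± 0.47 at day 1 (adjusted p = 0.559) came from day 1 replicate 2. Without that array it was -0.26 ± 0.21. The same array was the lowest of the 12 for 10 of the 14 members that passed the background limit anywhere, and for 48.2% of the 6212 genes that did so. Day 3 against day 1 gave 1.40 ± 0.47 for Il10rb (adjusted p = 0.426), and 0.76 ± 0.21 (adjusted p = 0.260) without the weakly separating arrays. Il10ra, the ligand-binding chain, was 7.42 ± 0.29 in intact samples and 7.16 ± 0.28, 7.11 ± 0.40 and 7.22 ± 0.02 at days 1, 3 and 7, with overlapping arrays throughout. Il20rb, the shared chain of the IL-19, IL-20 and IL-24 receptors, ranged from 4.88 to 7.03 over the 12 arrays, and its differences were -0.49, -0.39 and -0.072. Il20ra, Il22ra1 and the soluble IL-22 binding protein Il22ra2 stayed under the limit, with differences between -0.19 and 0.26.

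The receptors of IL-4, IL-13, IL-6, IL-12 and IL-17 that were above background everywhere differed little between groups. Il4ra, the alpha chain for IL-4 and IL-13, was 7.71, 7.82 and 7.88 in intact samples and 7.85, 6.88 and 8.19 at day 1. It was 7.62, 8.15 and 8.05 at day 3 and 8.03, 7.77 and 7.57 at day 7, so that only the 6.88 of day 1 replicate 2 stood apart. Its differences were -0.16 (0.21 without that array), 0.13 and -0.013, with 95% intervals from -0.78 to 0.75 over the days. Il13ra1, its partner, differed by 0.012, 0.21 and 0.21, and its decoy relative Il13ra2 stayed at 2.20 to 2.30 in all group means, under the limit.

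Il6ra, the IL-6 binding chain, had group means of 6.66 ± 0.14, 6.62 ± 0.24, 6.64 ± 0.21 and 6.76 ± 0.44 in intact, day 1, day 3 and day 7 samples. Il17ra, the common chain of IL-17 receptors, was nearly level on the intact arrays (7.75, 7.77 and 7.76), and its differences were -0.31, -0.28 and 0.0025. The day 1 value turned to 0.015 without day 1 replicate 2, and the day 3 value to 0.035 without day 3 replicate 1. Il12rb2 was 6.85 ± 0.43, 6.70 ± 0.21, 6.50 ± 0.32 and 7.01 ± 0.11, and its day 7 arrays lay above its day 3 arrays by a mean of 0.51 ± 0.23 (adjusted p = 0.974). Of the 7 members above background on all arrays, 6 had 95% intervals that excluded a 2-fold change in either direction at each day. The exception was Il1r2. These intervals are not adjusted for the number of members.

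Il3ra, the IL-3 receptor alpha chain, was 5.65, 6.03 and 5.99 in intact samples and 5.64, 5.35 and 5.55 at day 7, with all day 7 arrays below all intact ones by a narrow margin. The difference was -0.37 ± 0.23 (adjusted p = 0.988). At day 1 it was -0.39 ± 0.23 (adjusted p = 0.627), or -0.18 without the weakly separating arrays. Il15ra, which presents IL-15, ranged from 3.69 on day 1 replicate 2 to 5.80 on day 1 replicate 3, so a single group held both ends of its range. Its differences were -0.016, 0.14 and 0.27. Without the weakly separating arrays the first of these was 0.68 ± 0.23 (adjusted p in limma 0.303).

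The other members named for a low p were under the background limit on every array, where a difference in signal can understate one in RNA. Il21r, the IL-21 receptor of lymphocytes, was 2.92 ± 0.32 in intact samples and differed by -0.46 ± 0.20 at day 1 (adjusted p = 0.545) and -0.50 ± 0.20 at day 7 (adjusted p = 0.776). Its groups overlapped on both days, since intact replicate 2 was at 2.55. It lies next to Il4ra on chromosome 7, where the neighbouring gene showed no such difference. Il17rd was 2.63, 2.53 and 3.14 in intact samples and differed by -0.34 ± 0.21, -0.49 ± 0.21 and -0.44 ± 0.21 at days 1, 3 and 7. Its arrays did not overlap with intact at days 1 and 3, and without intact replicate 3 the day 3 and day 7 differences were -0.30 and -0.25. Il12rb1, the shared IL-12 and IL-23 receptor chain, differed by -0.34 ± 0.17 at day 3 (adjusted p = 1.00), with day 3 arrays at 2.21 to 2.31 below the intact ones at 2.48 to 2.69. Il27ra differed by -0.57 ± 0.34 at day 1 (adjusted p = 0.629). The remaining members, Il2ra, Il9r, Il23r, Il31ra, Il17rb, Il17rc and Il17re, differed from intact by between -0.19 and 0.21 on any day.

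Between the resected groups 0 members passed an adjusted p of 0.05 in limma, as for 0% of all probe sets in each of the 3 comparisons. At an unadjusted p under 0.05 there were 4 members for day 3 against day 1 (11.8%, against 9.60% of all probe sets), with Il7r, Il10rb and Il18r1 higher and Il12rb1 lower. There were 4 for day 7 against day 3 (11.8%, against 5.12%), with Il12rb2 higher and Il7r, Il1r1 and Il18r1 lower. There were 2 for day 7 against day 1 (5.88%, against 6.74%), Il10rb higher and Il1r1 lower. The 2 comparisons that involve day 3 share its arrays, and Il7r and Il18r1 appear in both.

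**Figure D4:**
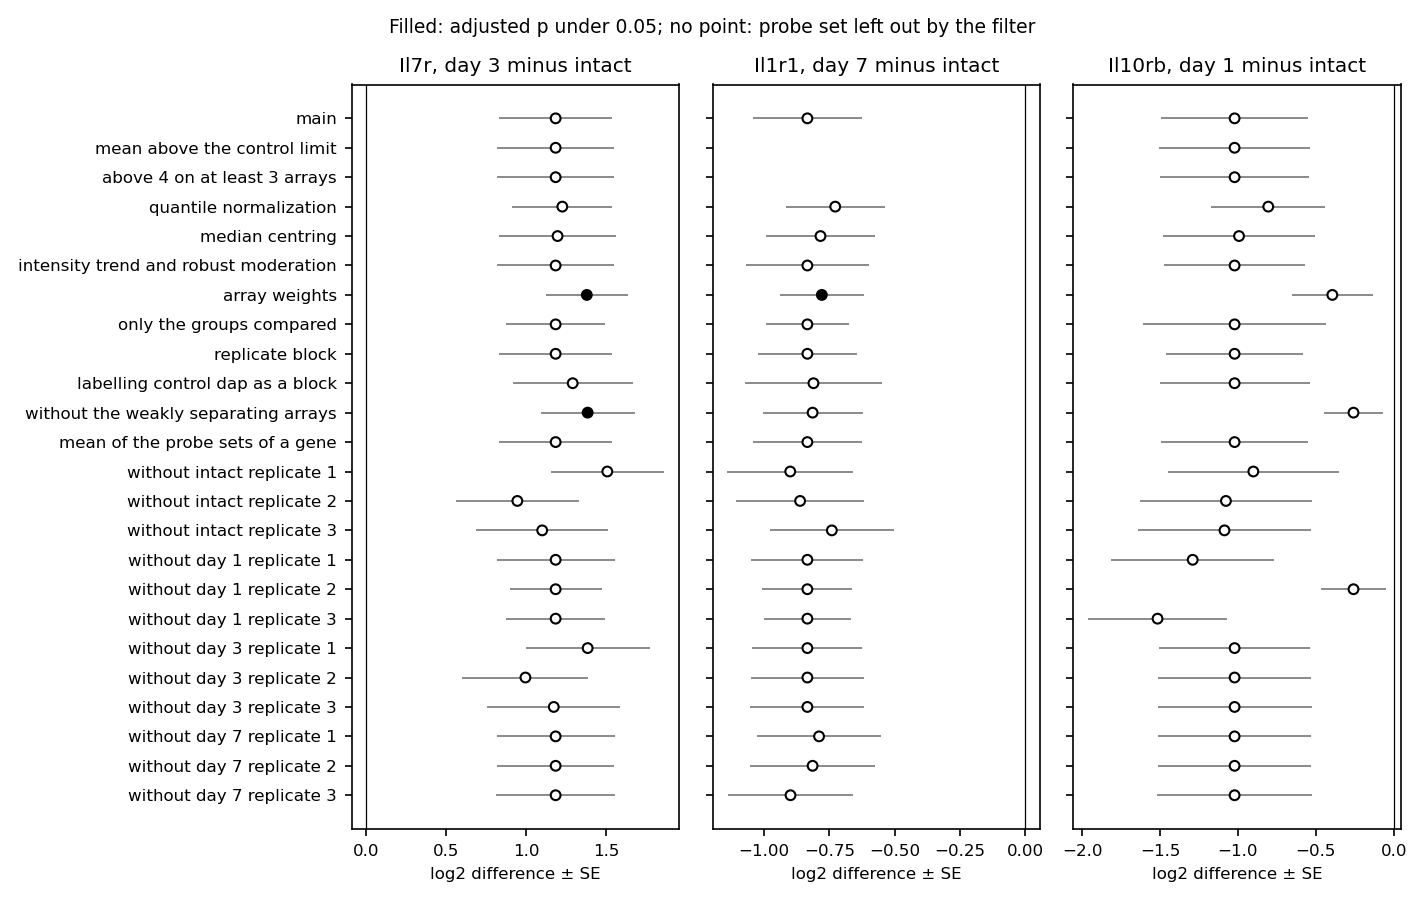
Log2 difference ± SE of Il7r at day 3, Il1r1 at day 7 and Il10rb at day 1 against intact, as fitted (main) and under 23 other settings; filled points had an adjusted p under 0.05. Il7r passes in 2 settings and Il1r1 in 1, both keep their direction, and Il10rb moves from -1.02 to -0.26 once day 1 replicate 2 is left out. Il1r1 has no point in the 2 settings that filter out dim probe sets, as both remove it.

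Other genes of these pathways were described from lists. Of 33 interleukin genes measured, 0 passed on any day. The differences were higher in 17 and lower in 16 at day 1, and 12 and 21 at days 3 and 7. Il33, an alarmin of endothelial and epithelial cells, was 4.08 ± 0.19 in intact samples and 3.36 ± 0.27, 3.46 ± 0.26 and 3.01 ± 0.23 at days 1, 3 and 7. Its arrays overlapped with intact on no day, and all lay under the background limit. The day 7 difference of -1.07 ± 0.20 (adjusted p = 0.154) passed with array weights (-0.97 ± 0.18, adjusted p = 0.0172) and without the weakly separating arrays (-1.03 ± 0.22, adjusted p = 0.0419). The endothelial and epithelial markers given above moved with it, and their part was not tested. Il6 differed by -2.41 ± 0.79 at day 1, -1.40 ± 0.79 at day 3 and -1.63 ± 0.79 at day 7, and at day 1 it differed by -1.39 without day 1 replicate 2. Its receptor chain Il6ra differed by at most 0.098 in size. The signal chain of that receptor, Il6st or gp130, differed by -0.49, -0.11 and -0.58. The further ligands taken by the naming rule were Il27 at 0.52 at day 1, Ebi3 at 0.97 (0.50 without intact replicate 2) and Il22 at -0.40 at day 3, and Il17a at -0.69 and Il22 at -0.41 at day 7.

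Of 12 related receptor genes outside the name pattern, 0 passed. Csf3r, the G-CSF receptor of neutrophils, differed by 0.64 at day 1 and 1.03 ± 0.35 at day 7, Csf2ra by 0.33 at day 3 and 0.50 at day 7, and Lifr by -1.36 ± 0.45 at day 1 and -0.91 at day 7. Without day 7 replicate 3 the last of these was -0.55. Ifngr1 and Csf2rb differed by 0.57 and -0.32 at day 3 and Ifnlr1 by 0.50 at day 1. Csf2rb was at -0.12 without day 3 replicate 1 and -0.18 without intact replicate 1, and Ifnlr1 at 0.31 without intact replicate 2. The soluble antagonists Il1rn and Il18bp differed by -0.60 and -0.052 at day 1, by -0.30 and 0.48 at day 3 and by -0.034 and -0.15 at day 7. Without day 1 replicate 2 the day 1 difference of Il1rn was -0.26, and that of Il18bp at day 3 was 0.74 without intact replicate 1.

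The JAK-STAT list held 21 measured genes, of which 18 were lower than intact at day 1 (median -0.29), 15 at day 3 (median -0.10) and 13 at day 7 (median -0.071), with 0 past the test on any day. Over all genes 52.4% were lower at day 1 (median -0.018). At days 3 and 7, 9719 and 10279 of all 19505 genes were lower (medians 0.00070 and -0.015). Without day 1 replicate 2, 12 of the 21 were lower at day 1, with a median of -0.036, against 50.1% of all genes. Cish, a feedback inhibitor induced by STAT5, was 6.67 ± 0.22 in intact samples and differed by -0.87 ± 0.22 at day 1 and -0.74 ± 0.22 at day 3, without overlap on either day. Socs1, another such inhibitor, differed by -0.53 ± 0.165, -0.43 ± 0.165 and -0.69 ± 0.165, with no overlap on any day and all values under the limit. At day 7 it passed with array weights (-0.61 ± 0.14, adjusted p = 0.0414). Stat2 differed by -1.35 ± 0.39 at day 1 (-0.90 without day 1 replicate 2) and -0.71 at day 3, and Irs2 and Stat3 by -0.42 and -0.28 at day 7. Irs2 was at -0.23 without day 7 replicate 2. Of 12 genes of MyD88 and Act1 signalling, 9 were lower at day 1, 5 at day 3 and 5 at day 7, and 0 passed. Without day 1 replicate 2 the day 1 count of lower genes was 5, with a median of 0.052 in place of -0.15. Ikbkb differed by -0.76 ± 0.25 and Tab2 by -0.28 at day 1, and without that array by -0.42 and -0.029. At day 3 Irak3 differed by 0.35 and Myd88 by -0.35, or by 0.20 without day 3 replicate 3 and by -0.16 without day 3 replicate 1. At day 7 Tab3 differed by 0.69, or 0.40 without day 7 replicate 1, and Ikbkb by -0.44. Map3k7 differed by -0.20, 0.17 and 0.30 at days 1, 3 and 7, and the first of these turned to 0.032 after quantile normalization.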

How the data were processed

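RNA of 12 samples was hybridised to Clariom S mouse arrays. The authors deposited 1 log2 signal for each probe set and array. The submitters' processing notes name RMA and the Transcriptome Analysis Console, and the log2 scale was read from the values. No genome build of the arrays is given in the sources used here. Of 28846 probe sets, 6640 controls were left out and 22206 were tested. The probe annotation gave 19572 of these 1 symbol, 0 several and 2634 none, for 19505 genes, the probe set of highest mean standing for a gene. One limma 3.58.1 model (R 4.3.3) was fitted over all 12 arrays with the group as the only term, default moderation, two-sided tests and Benjamini-Hochberg adjustment over all tested probe sets, with a threshold of 0.05. An exact permutation test of 3 against 3 arrays cannot go below 0.1. The procedure was tested on simulated data. A list is described by counts and medians, with no test. A summed level is the log2 of the summed linear signals of a list.

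Members given in full were the 5 of lowest unadjusted p at each day and 14 fixed ones, of which 12 were measured; of each pathway list the 3 genes of lowest p at each day were named. The members and lists were chosen with earlier results of these data known. Alternatives were dim filters (mean above the median control limit; above 4 on 3 arrays), quantile normalization, median centring, trend and robust moderation, array weights, only the groups compared, replicate and dap blocks (dap above 5), no arrays under 0.84 in separation, a threshold of 0.1, averaging all probe sets of a gene, and each array left out. Protein features were planned and were not computed here.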

Additional observations from a re-analysis of the deposited data

How the results depend on the processing

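The number of arrays and the nearness of 20 members to background limit every value. Of 1003 values of the 45 member differences named, 3 came to pass the threshold. These values leave out the threshold of 0.1 and the members that a dim filter removed. Averaging the probe sets of a gene could not move a member's difference, as each of the 34 has 1 probe set. A change of sign was counted only where the main difference was over 1 SE from 0, and 2 values met this rule. Smaller differences changed sign too and were not counted. Without day 1 replicate 2, for example, Il7r at day 1 went from -0.26 to 0.11 and Il4ra from -0.16 to 0.21. Il17ra at day 1 became 0.015 without the weakly separating arrays and 0.015 without day 1 replicate 2 (-0.54 to 0.015 with 1 array left out), and Map3k7 at day 1 became 0.032 after quantile normalization; the cause was not tested. The count of members past the threshold was 1 at day 3, 1 at day 7 and 1 in the F test with array weights, and 1 at day 3 without the weakly separating arrays; it was 0 in every comparison under all other alternatives run, each left-out array included. Over all probe sets the counts at days 1, 3 and 7 (0, 1 and 4) became 43, 298 and 402 with array weights and 71, 252 and 280 without the weakly separating arrays. They became 0 and 0 at days 3 and 7 with the filter on the mean, 3 and 8 with the filter at 4, 0 and 48 with only the groups compared, and 5 and 8 at a threshold of 0.1. Quantile normalization and trend moderation gave 4 each at day 3, and the dap block gave 1 at day 1. Leaving out 1 array gave 0 to 12, 0 to 7 and 0 to 18. The members' median was -0.16, 0.13 and 0.098 with either filter, which keeps fewer members, and -0.19 to -0.028, -0.00040 to 0.043 and 0.00040 to 0.078 with 1 array left out. Whether the replicate numbers pair the samples is not given by the labels. Deviations of 18 same-numbered pairs correlated between -0.241 and 0.258, with 3 over 0.1. Those of differently numbered pairs correlated between -0.318 and 0.284. The value of 0.258 joined day 1 replicate 2 and day 7 replicate 2, both weakly separating arrays, so these correlations cannot settle the pairing. With the replicate block 0 members passed, and 0 and 8 probe sets passed at days 3 and 7. Leaving day 1 replicate 2 out of the pathway lists was chosen after seeing the data.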
